A study of Mus musculus with 9 samples.

Results

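A set of 61 genes of mixed functions was chosen by its steep fall in mouse embryonic stem (ES) cells labelled Zbtb11 KO. The genes were selected on CPM, the count of a gene scaled to the total gene count of its library: protein-coding, a mean of at least 1 CPM in both controls, and a mean in the labelled KO libraries of at most 0.3 times each control mean. Among the 12434 protein-coding genes that reached 1 CPM in both controls, 81 met this limit, and 20 of them were left out by name. Some of these were genes of the mitochondrial ribosome and complex I. The others were Trdmt1, Aar2, Nkap, Acsf3, Stx18, Slc35a3, Alg3, Zmpste24, Wdr36 and Mkrn3. The remaining 61 of the 37310 gene rows form the set, and all 61 were among the 16224 genes tested. The fall against either control is therefore what chose the genes, and it is described below with no test.

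The 3 groups had 3 libraries each, all collected at 72 h from cells of the E14 line grown with serum and LIF and without feeder cells. The ethanol control carried Zbtb11 lox/lox alleles and ERt2-Cre at Rosa26 and received ethanol. The labelled KO group was the same line after 250 nM of the Cre-inducing ligand 4-hydroxytamoxifen (4OHT). The 4OHT control carried Zbtb11 WT/WT and Rosa26 WT alleles and received 4OHT, so it differs from the ethanol control in both line and drug. The labels do not tie the replicates to separate cultures. P-values therefore reflect library-to-library spread, part of which may be technical. Unless a replicate block is named, the tests did not pair libraries by replicate number. Gene counts per library ran from 16909139 to 23544893. All 10 ES cell markers examined were above 1 CPM in every library, with a summed level of 4257 to 4982 CPM. Summed primitive endoderm markers (6 genes) were at 10.9 to 19.1 CPM in the control libraries and 21.6 to 26.3 CPM in the labelled KO libraries. Gata6, Pdgfra, Dab2 and Sox17 (under 1 CPM) were above every control library there. Gata4 (2.85 to 5.33 CPM against 1.42 to 3.04 in the ethanol control) and Sox7 (0.795 to 2.02 against 1.01 to 1.77) overlapped. The part of the primitive endoderm markers in the results was not tested. Summed fibroblast markers (7 genes) were at 15.8 to 18.6 CPM in the ethanol control and 13.6 to 14.6 in the 4OHT control. In the labelled KO the sum was 18.99 to 19.8, higher than in any control library. Col3a1, Dcn, Lum and Postn stayed under 1 CPM in all 9 libraries, and Col1a1, Col1a2 and Thy1 made up most of the sum. In the labelled KO, Col1a1 (9.66 to 10.3 CPM) was above every control library and Col1a2 overlapped the ethanol control. Thy1 went the other way, at 5.52 to 6.01 CPM there, 5.85 to 6.33 in the ethanol control and 7.99 to 9.39 in the 4OHT control. The part of the fibroblast markers in the results was also not tested. Zbtb11 itself, counted over the whole gene, was at 346.7, 348.4 and 356.02 CPM in the ethanol control libraries, 357.7, 368.8 and 351.4 in the 4OHT control and 389.9, 397.6 and 383.4 in the labelled KO. The groups did not separate downward, but a whole-gene count also includes exons that a deletion may leave in place and does not check the deletion.

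Zbtb11 encodes a BTB-domain zinc finger protein that binds DNA in the nucleus. Genes required in every cell, such as those of RNA modification, vesicle transport and protein breakdown, often start at short, GC-rich promoters in which GGAA words, the core bound by ETS-family factors such as GABP, are common. Most of the 61 genes encode 1 subunit or 1 enzyme of such a process, so the complex or pathway around each can be read alongside it.

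Across the set, the labelled KO mean ran from 6.33% to 29.6% of the lower control mean, with a median of 18.2%. It was at most 10% in 9 genes, between 10% and 20% in 29 and above 20% in 23. The log2 difference from the ethanol control ran from -4.05 to -1.83 (median -2.55), and from the 4OHT control from -4.41 to -1.84 (median -2.75). The median over all tested genes was 0.01 and 0.02. In all 61 genes the 3 labelled KO libraries lay below all 6 control libraries, which the rule nearly fixes; 8.39% of all tested genes did so. The median gene stood at 18.6%, 16.1% and 16.01% of the mean of the control means in labelled KO libraries 1, 2 and 3, so no single library carried the fall.

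**Figure D1:**
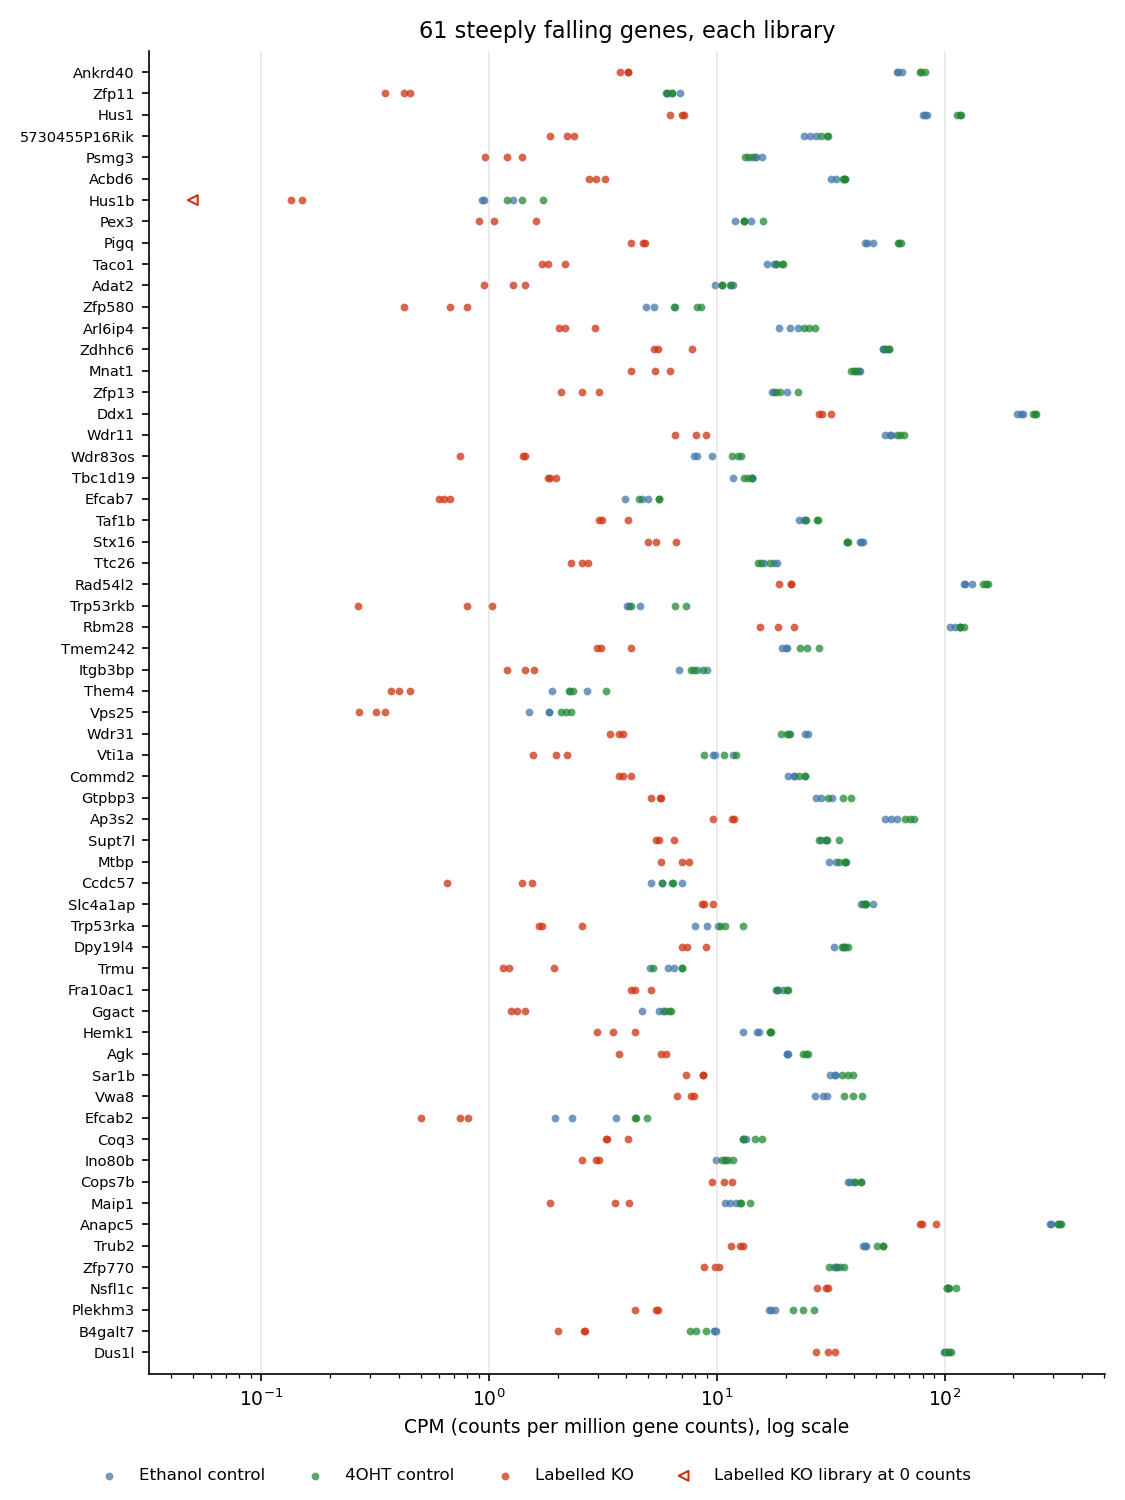
Level of each of the 61 genes in each library, in CPM on a log axis, ordered by the labelled KO mean as a share of the lower control mean. Every labelled KO point lies left of every control point of its gene; the open triangle marks a labelled KO library with 0 counts of Hus1b.

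The 12 steepest falls include genes of DNA damage signalling, RNA and mitochondria, among them the paralogs Hus1 and Hus1b, the zinc finger genes Zfp11 and Zfp580, and Acbd6, Pex3 and Pigq of the ER, peroxisome and lipid group. Ankrd40, an ankyrin-repeat protein that is little described, was at 62.03, 64.9 and 61.4 CPM in the ethanol control libraries, 78.9, 78.2 and 82.1 in the 4OHT control and 4.08, 3.76 and 4.08 in the labelled KO. The labelled KO level was 6.33% of the lower control mean, and the 4OHT control stood above the ethanol control. Zfp11, a zinc finger protein, was at 6.90, 5.95 and 6.03 CPM in the ethanol control libraries, 6.34, 6.01 and 6.36 in the 4OHT control and 0.448, 0.351 and 0.424 in the labelled KO, or 6.53%, and the 2 controls overlapped. Hus1, a subunit of the 9-1-1 clamp that signals DNA damage, was at 80.4, 81.6 and 83.3 CPM in the ethanol control libraries, 112.9, 118.3 and 116.2 in the 4OHT control and 6.23, 7.16 and 7.0001 in the labelled KO. That is 8.31% of the lower control mean, with a log2 difference of -3.66 ± 0.07 (SE) from the ethanol control. Its paralog Hus1b was near the limit of counting, at 1.27, 0.934 and 0.946 CPM in the ethanol control libraries, 1.40, 1.20 and 1.73 in the 4OHT control and 0.134, 0.150 and 0 in the labelled KO. The labelled KO libraries held 0 to 3 counts of it, so no fold is given, and reads shared with Hus1 cannot be told apart from its own.

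5730455P16Rik, a gene named only by its clone, was at 27.3, 25.6 and 24.1 CPM in the ethanol control libraries, 28.6, 30.5 and 30.7 in the 4OHT control and 2.19, 2.35 and 1.86 in the labelled KO. Psmg3, a chaperone that helps build the proteasome, was at 14.8, 15.8 and 14.7 CPM in the ethanol control libraries, 13.3, 14.3 and 13.7 in the 4OHT control and 1.39, 1.20 and 0.955 in the labelled KO. Both stood below 10% of either control, at 8.31% and 8.58% of the lower control mean. Acbd6, an acyl-CoA-binding protein, was at 31.6, 33.5 and 36.5 CPM in the ethanol control libraries, 35.7, 36.5 and 36.2 in the 4OHT control and 2.73, 2.95 and 3.23 in the labelled KO. Pex3, the membrane anchor on which peroxisomes are built, was at 14.1, 13.1 and 11.9 CPM in the ethanol control libraries, 15.997, 13.1 and 13.1 in the 4OHT control and 1.61, 1.05 and 0.902 in the labelled KO. Pigq, part of the enzyme that starts the GPI anchor, was at 45.6, 44.7 and 48.3 CPM in the ethanol control libraries, 62.7, 64.2 and 62.5 in the 4OHT control and 4.84, 4.21 and 4.72 in the labelled KO, and its 4OHT control libraries were all above its ethanol control libraries. These 3 genes kept 8.78%, 9.11% and 9.92% of the lower control mean.

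Taco1, an activator of translation of the mitochondrial COX1 mRNA, was at 16.7, 18.1 and 17.8 CPM in the ethanol control libraries, 18.1, 19.4 and 19.5 in the 4OHT control and 2.15, 1.70 and 1.80 in the labelled KO. Adat2, the catalytic subunit of the deaminase that makes inosine in the tRNA anticodon, was at 9.76, 11.8 and 11.4 CPM in the ethanol control libraries, 11.5, 10.5 and 10.5 in the 4OHT control and 1.43, 0.951 and 1.27 in the labelled KO. Zfp580, a zinc finger protein, was at 5.31, 4.88 and 6.56 CPM in the ethanol control libraries, 8.21, 6.47 and 8.51 in the 4OHT control and 0.672, 0.801 and 0.424 in the labelled KO. They stood at 10.8%, 11.2% and 11.3% of the lower control mean, and in none of the 3 did a labelled KO library reach a control library. The log2 difference from the ethanol control was -3.28 ± 0.12 (SE) for Taco1, -3.23 ± 0.16 (SE) for Adat2 and -3.18 ± 0.23 (SE) for Zfp580.

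The promoters of the set were read next, since the rule did not use sequence. RefSeq windows of 300 bases (250 before to 50 after the gene start, build GRCm38.p6) were matched for 54 of the 61 genes. Efcab7, Mtbp, Tbc1d19, Commd2, Efcab2, Dpy19l4 and Rad54l2 had no entry. The 10 words of 8 bases with the largest excess in these windows over the 9740 other expressed genes with a window were led by GCGGAACC, in 9 genes and 2.28% of the others. Of the 10 words, 5 held CGGAAC and 7 held CGGAA. The 6-base word CGGAAC was taken from this list after it was seen, so its share in the set describes the choice. It stood in 31 of 54 genes (57.4%, either strand), against 16.1% of the other expressed genes and 7.97% of all windows in the table.

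The sequences below show the word where it was found. Each is the stretch of 120 bases that ends at the base before the RefSeq start, read on the strand of the gene, and capitals mark CGGAAC. They belong to the 8 steepest falls among genes with a single RefSeq window whose stretch holds the word and overlaps no annotated exon, with Ankrd40, the steepest fall, added as a gene without it. The stretches are Hus1 chr11:9011192-9011311 (- strand), Psmg3 chr5:139826895-139827014 (- strand), Acbd6 chr1:155558000-155558119 (+ strand), Zfp580 chr7:5051412-5051531 (+ strand), Mnat1 chr12:73123597-73123716 (+ strand), Wdr11 chr7:129591743-129591862 (+ strand), Tmem242 chr17:5440261-5440380 (- strand), Vps25 chr11:101253587-101253706 (+ strand) and Ankrd40 chr11:94327881-94328000 (+ strand).
Hus1: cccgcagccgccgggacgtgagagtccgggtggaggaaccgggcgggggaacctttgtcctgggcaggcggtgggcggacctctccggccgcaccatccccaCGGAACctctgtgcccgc
Psmg3: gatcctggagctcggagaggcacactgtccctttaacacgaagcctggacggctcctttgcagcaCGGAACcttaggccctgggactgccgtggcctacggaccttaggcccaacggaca
Acbd6: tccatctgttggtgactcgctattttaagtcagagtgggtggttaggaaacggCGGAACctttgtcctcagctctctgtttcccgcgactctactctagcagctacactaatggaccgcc
Zfp580: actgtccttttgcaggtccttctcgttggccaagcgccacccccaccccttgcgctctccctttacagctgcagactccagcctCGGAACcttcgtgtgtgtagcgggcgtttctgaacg
Mnat1: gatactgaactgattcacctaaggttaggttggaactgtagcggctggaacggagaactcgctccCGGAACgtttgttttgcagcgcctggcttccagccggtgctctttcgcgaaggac
Wdr11: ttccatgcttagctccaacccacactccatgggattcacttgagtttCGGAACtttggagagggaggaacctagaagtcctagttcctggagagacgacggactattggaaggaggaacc
Tmem242: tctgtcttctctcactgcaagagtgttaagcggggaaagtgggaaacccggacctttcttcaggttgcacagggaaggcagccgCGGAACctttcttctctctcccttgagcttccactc
Vps25: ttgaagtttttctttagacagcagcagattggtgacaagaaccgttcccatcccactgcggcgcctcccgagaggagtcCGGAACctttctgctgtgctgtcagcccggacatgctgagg
Ankrd40: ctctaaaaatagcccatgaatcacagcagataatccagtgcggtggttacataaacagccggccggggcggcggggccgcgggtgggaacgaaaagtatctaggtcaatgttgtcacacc

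Where an annotated exon reaches into that stretch, only the word with 10 bases on each side is shown, again on the strand of the gene. Positions give the word's first base relative to the start, with negative values before it. Zfp11 held it at -124, -96 and -64, Pigq at -36, Taco1 at -103, Pex3 at -72, Ddx1 at -84 and -46 and Rbm28 at -50. The lines for Stx18, Zmpste24, Mrpl3 and Trdmt1 are genes left out by name, which had no part in choosing the word. These lines are picked examples that all have C after the word and include every match followed by CTT. Over all 17 matches in the genes left out by name, C followed in 12 and CTT in 3.
Zfp11 (-96): cgggtcaccgCGGAACccggagaccc
Pigq (-36): gccgcgcgcgCGGAACtctcgggctc
Taco1 (-103): cgcgaggcagCGGAACcaactttgca
Pex3 (-72): gagaggacagCGGAACgcggcgggag
Ddx1 (-84): ttttcgtcctCGGAACctttctcctg
Rbm28 (-50): tttttctttcCGGAACtattccttcc
Stx18 (-77): gggttaaagcCGGAACctttctccac
Stx18 (-37): gggcggagtgCGGAACctttcttcta
Zmpste24 (-96): ggaagaaggcCGGAACctttgaattg
Mrpl3 (-73): catttggataCGGAACcatagttaca
Trdmt1 (-67): tgaaaagccgCGGAACcagaagcgaa

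In the set the word lay mostly on the strand of the gene. Of 40 matches in the set, 34 (85.0%) read CGGAAC on the strand of the gene, against 898 of 1794 (50.1%) in the other expressed genes. Within 150 bases before the start, 27 of 54 genes (50%) held it on their own strand and 2 (3.70%) on the other strand. The same shares were 5.03% and 4.67% in the other expressed genes, so the excess lay on 1 strand. In the set, 32 of the 34 matches on the gene's strand fell in those 150 bases, with a median first base at -72.5. In the other expressed genes 517 of the 898 did so, and the median over the 898 was nearly the same, at -74. The median place is therefore not particular to the set. The base after the word was C in 20 of the 34 matches of the set and T in 8. In the other expressed genes C followed in 39.8% and C or T in 67.9%, against 58.8% and 82.4% in the set. CTT followed it in 6 matches (17.6%), in Acbd6, Ddx1, Psmg3, Tmem242, Vps25 and Zfp580, against 3.56% in the other genes. The 8-base words that gave CGGAAC include CGGAACCC and CGGAACCT, so the bases after the word in the set also describe the choice. Of the genes with the word, 24 held it in 1 place and 7 in more. Trp53rka and Trp53rkb are near-identical copies whose promoters are not separate cases.

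Among the 20 genes left out by name, which met the same expression limit and were not used to find the word, 18 had a window and 13 of these (72.2%) held CGGAAC. All 17 matches in them were on the strand of the gene, and 11 genes (61.1%) held it there within 150 bases before the start. The place differed from that in the set, with a median first base at -26 against -72.5. Of the 17 matches, 5 began at or past the start, against 1 of 34 in the set. CGGAACC stood in 21 of the 54 genes of the set (38.9%), in 10 of the 18 (55.6%) and in 6.82% of the other expressed genes. In the set the related words differed by their last base: CGGAAA stood in 40.7% of the set and 17.0% of the others, CGGAAG in 51.9% and 35.1%, and CGGAAT in 7.41% and 6.96%. Of the 18 genes left out by name, 8 (44.4%) held CGGAAA, 9 held CGGAAG and 5 (27.8%) held CGGAAT. The low share of CGGAAT in the set was thus not seen in the genes left out by name.

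**Figure D2:**
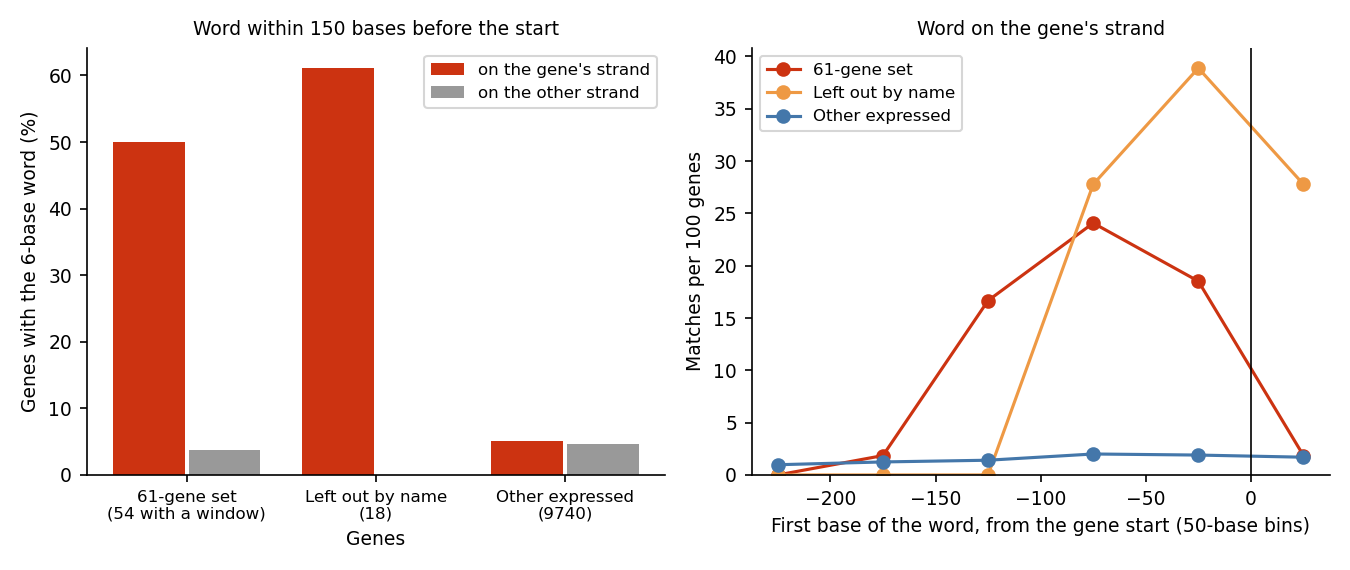
Left: percentage of genes with CGGAAC within 150 bases before the start, on the gene's strand (red bars) and on the other strand (grey bars). Right: matches on the gene's strand per 100 genes in bins of 50 bases. The set (50%) and the genes left out by name (61.1%) exceed the other expressed genes (5.03%) on the gene's strand alone.

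The listed motifs of common promoter factors gave other shares (either strand, whole window). The ETS core CCGGAAG was in 17 of 54 genes (31.5%) against 20.2% of the other expressed genes and 8.86% of all windows; it overlaps CGGAAG. With only the 200 bases before the start it was in 9 genes (16.7%) against 14.6%. GGGCGGG, a word of SP and KLF factors, was less frequent in the set, in 10 genes (18.5%) against 53.7%. The NRF1 word GCGCNTGCG was in 3.70% against 15.7%, the NF-Y word AGCCAAT in 5.56% against 12.9% and the E-box CACGTG in 3.70% against 12.1%. AGATGGCGG (YY1), ACTACAATT (THAP11 and ZNF143), CTCGCGAGA and TGACGTCA were in no window of the set and in 2.80%, 0.873%, 1.76% and 3.66% of the others. In all windows of the table the shares were 25.6% for GGGCGGG, 6.31% for GCGCNTGCG, 7.86% for AGCCAAT and 7.15% for CACGTG. For the other 4 words, in the same order, they were 1.06%, 0.393%, 0.676% and 1.79%. In the 18 genes left out by name the shares were 22.2% for CCGGAAG, 11.1% for GGGCGGG and 16.7% (3 genes) for GCGCNTGCG. AGCCAAT and AGATGGCGG stood in 5.56% each, and CACGTG, ACTACAATT, CTCGCGAGA and TGACGTCA in none. The low share of GCGCNTGCG in the set was thus not seen there. The windows of the set had a median GC content of 56.5%, against 61.3% in the other expressed genes and 52.7% in the genes left out by name, and the part of base composition in these shares was not tested. A match describes letters in the window and says nothing of which factor binds there.

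Genes outside the set that carry the word were then read in the fitted comparisons, in which 14.2% of all tested genes fell against the ethanol control and 2.87% fell at least 1.5-fold. Among 8167 other expressed genes without CGGAAC, 156 (1.91%) fell at least 1.5-fold at an FDR (Benjamini-Hochberg adjusted p of edgeR's quasi-likelihood test) below 0.05. Of the 490 with the word on their strand within 150 bases before the start, 50 (10.2%) did so, and 27 of 203 (13.3%) did so with CGGAACC there. Where the word stood there on the other strand only, the count was 10 of 417 (2.40%). With CGGAAC on either strand anywhere in the window it was 78 of 1573 (4.96%). That was the planned reading, and the limits to the gene's strand and to 150 bases were not in the plan. Against the 4OHT control, where 6.48% of all tested genes fell at least 1.5-fold, the share was 5.33% without the word. With it on either strand the share was 7.25%, with it on the gene's strand 10.8% and with it on the other strand 6.47%. The median log2 difference from the ethanol control was -0.01 without the word and -0.05 with it on the gene's strand. Over the alternative fits, the first share lay between 1.29% and 2.24%, that with the word on the gene's strand between 8.78% and 10.6%. These genes differ from the set by a rule on the same contrast, and the 2 comparisons share the labelled KO libraries.

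**Figure D3:**
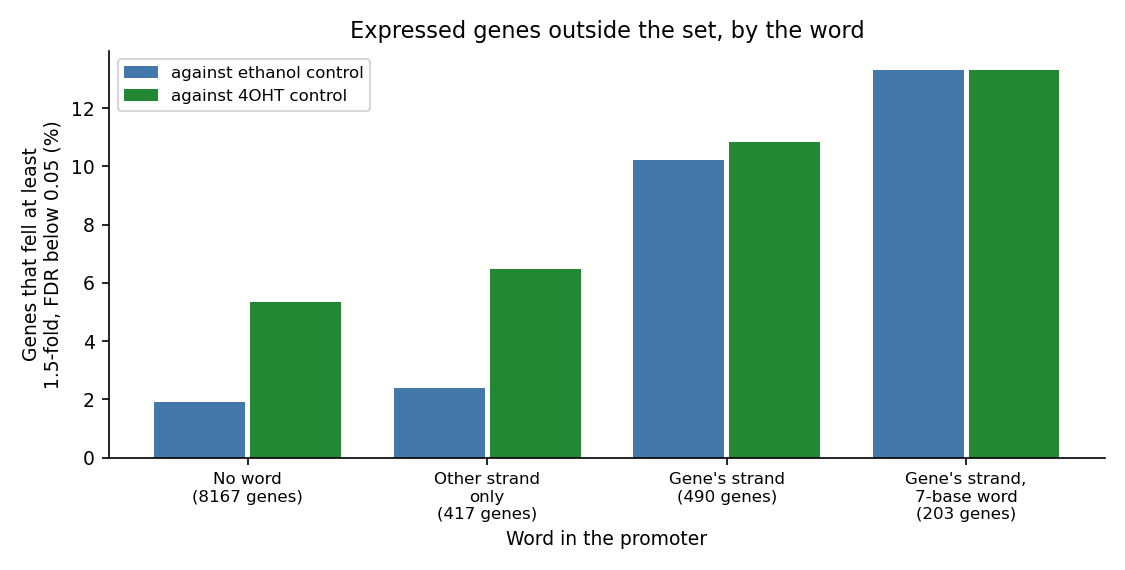
Share of expressed genes outside the set that fell at least 1.5-fold at an FDR below 0.05, by the word in the promoter, with blue bars against the ethanol control and green bars against the 4OHT control. Shares against the ethanol control rise from 1.91% without the word to 10.2% with CGGAAC and 13.3% with CGGAACC on the gene's strand.

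Within the set, the 31 genes with the word kept a median of 15.7% of the lower control mean (6.53% to 27.0%) and the 23 without it 24.4% (6.33% to 29.6%). The 7 genes with no window kept a median of 18.3%. The rule set a limit on this share and the word was taken from these same windows. The difference is therefore described with no test, and a link between the word and the size of the fall was not tested. Ankrd40, Hus1b and Adat2 were the genes among the 12 steepest falls that lacked the word.

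The largest group by role was RNA processing and tRNA, with 12 genes at 11.2% to 29.6% of the lower control mean. Ddx1, a DEAD-box helicase that works with the tRNA ligase, was among the most abundant at 207.5, 220.005 and 216.5 CPM in the ethanol control libraries, 251.2, 244.4 and 248.5 in the 4OHT control and 28.1, 31.6 and 28.8 in the labelled KO. The labelled KO libraries lay far below the others, at 13.7%, with a log2 difference of -2.93 ± 0.06 (SE) from the ethanol control. Rbm28, a nucleolar protein of ribosome assembly, kept 16.8%, and Arl6ip4, a protein of splicing speckles, kept 11.4%. Other enzymes that modify RNA also stood low. Beside Adat2, Gtpbp3 (18.8%) and Trmu (24.3%) act in turn on the wobble uridine of mitochondrial tRNA, Trub2 (27.8%) makes pseudouridine in mitochondrial RNA and Dus1l makes dihydrouridine. Trp53rka (21.7%) and Trp53rkb (16.5%) encode the kinase of the KEOPS complex; the copies are nearly identical and how reads were split between them is uncertain. Slc4a1ap kept 20.3% and Fra10ac1 24.4%.

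Transcription and chromatin held 8 genes at 6.53% to 28.6%. Mnat1, the assembly factor of the CDK-activating kinase of TFIIH, went from 41.6 ± 1.38 CPM in the ethanol control to 5.24 ± 1.01 (means ± SD, n = 3), and Taf1b, a subunit of the RNA polymerase I factor SL1, from 23.8 ± 0.767 to 3.40 ± 0.567. Supt7l of the SAGA coactivator kept 19.7% and Ino80b of the INO80 remodeller 27.02%. The other members were the zinc finger genes Zfp11, Zfp580, Zfp13 (13.7%) and Zfp770 (28.6%).

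Checkpoint, replication and division held 6 genes. Rad54l2, a SNF2-type ATPase, was at 122.2, 121.6 and 131.6 CPM in the ethanol control libraries, 150.97, 155.2 and 146.9 in the 4OHT control and 21.1, 18.7 and 21.2 in the labelled KO. Anapc5, a subunit of the anaphase-promoting complex and the most abundant gene of the set, was at 289.6, 291.7 and 313.8 CPM in the ethanol control libraries, 313.3, 320.3 and 324.8 in the 4OHT control and 78.2, 91.1 and 79.7 in the labelled KO. It kept 27.8% of the lower control mean against 16.2% for Rad54l2, so the most abundant gene was among the shallower falls. Mtbp, a factor of replication origin firing, kept 19.997% and Itgb3bp, the kinetochore protein CENP-R, 17.5%.

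Membrane traffic held 9 genes at 13.9% to 29.3%. They were the endosomal SNAREs Stx16 (15.1%) and Vti1a (18.3%), the ESCRT-II subunit Vps25 (18.2%), the AP-3 adaptor subunit Ap3s2 (19.1%) and the COPII GTPase Sar1b (25.4%). Wdr11 (13.9%), Commd2 (18.3%), Plekhm3 and Tbc1d19 (14.002%), which carries a Rab GTPase-activating domain, completed the group. Vps25 was low in every library, at no more than 2.29 CPM.

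The ER, glycan, peroxisome and lipid group held 7 genes at 8.78% to 29.3%. Besides Acbd6, Pex3 and Pigq it contained Zdhhc6 (11.4%), a palmitoyltransferase, Wdr83os (13.97%), a chaperone of membrane proteins, Dpy19l4 (22.1%) and B4galt7, which adds the first galactose of the proteoglycan linker. Mitochondrial proteins outside RNA modification numbered 8, at 10.8% to 27.8%. They were Taco1, Tmem242 (17.2%), the thioesterase Them4 (17.8%), the methyltransferase Hemk1 (25.1%), the lipid kinase and TIM22 subunit Agk (25.2%), Vwa8 (25.7%), the coenzyme Q enzyme Coq3 (26.8%) and Maip1 (27.8%), which binds the m-AAA protease. Maip1 was uneven, with labelled KO libraries at 3.58, 4.11 and 1.86 CPM.

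Protein breakdown held Psmg3, Ggact (24.99%), Cops7b of the COP9 signalosome (27.5%) and the p97 cofactor Nsfl1c (28.7%). Genes of the cilium or with calcium-binding EF hands numbered 5: Ttc26 of the intraflagellar transport train (15.7%), Wdr31 (18.2%), Efcab7 (14.05%), Ccdc57 (20.03%) and Efcab2 (26.02%). Ankrd40 and 5730455P16Rik remained without a role.

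The limit of 0.3 cut through a continuous range. Just inside it, Dus1l was at 104.7, 101.3 and 100.6 CPM in the ethanol control libraries, 103.4, 106.5 and 98.8 in the 4OHT control and 30.7, 32.9 and 27.1 in the labelled KO, B4galt7 at 9.85, 9.73 and 9.94 CPM in the ethanol control libraries, 8.07, 8.99 and 7.62 in the 4OHT control and 2.64, 2.003 and 2.60 in the labelled KO and Plekhm3 at 17.3, 16.9 and 17.9 CPM in the ethanol control libraries, 26.8, 21.7 and 23.8 in the 4OHT control and 5.51, 4.36 and 5.41 in the labelled KO. Shares of the lower control mean were 29.6%, 29.3% and 29.3%. Just outside, Sec22b was at 33.7, 33.4 and 33.1 CPM in the ethanol control libraries, 36.1, 36.03 and 35.5 in the 4OHT control and 12.9, 9.31 and 8.27 in the labelled KO, Slc33a1 at 12.8, 12.8 and 12.5 CPM in the ethanol control libraries, 15.6, 15.6 and 14.6 in the 4OHT control and 4.03, 3.66 and 4.03 in the labelled KO and Trip4 at 30.5, 30.3 and 27.9 CPM in the ethanol control libraries, 38.6, 40.7 and 40.5 in the 4OHT control and 9.36, 9.06 and 8.80 in the labelled KO. Their shares were 30.4%, 30.7% and 30.7%, so these 6 genes are nearly alike in the size of the fall. The choice was repeated with 1 replicate number left out of all groups, and the ratio was then read in the libraries left out. Without number 1, 62 genes were chosen and 52 of them stood at or below 30% in the libraries left out (median 19.5%, highest 41.1%). Without number 2 the count was 53 of 59 (median 17.8%), and without number 3 it was 55 of 58 (median 17.2%). In these libraries no gene chosen from the other 2 numbers stood above 41.1%.

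The controls were then compared with each other. The rule did not use this difference, but it used both control means as limits, so the counts describe the chosen genes and are not independent of the choice. In this comparison 9.66% of all tested genes were higher in the 4OHT control and 8.75% lower. Of the 61 genes, 16 were called higher by edgeR at an FDR below 0.05 and 0 lower (2 lower at an unadjusted p below 0.05, and 0 by DESeq2); 53 had a positive and 8 a negative log2 difference. Summed trophoblast markers (6 genes, Cdx2 and Elf5 under 1 CPM in all 9 libraries) were at 51.7 to 70.9 CPM in the 4OHT control and 83.9 to 90.2 in the ethanol control. Summed primitive endoderm markers were at 10.9 to 12.9 and 13.01 to 19.1 CPM. The sums of these lists, and of the fibroblast list, were lower in the 4OHT control without overlap. Single genes did not all follow. Tfap2c (36.0 to 56.0 against 63.9 to 73.5 CPM) made up most of the trophoblast sum. Cdx2 (0.466 to 0.630 against 0.182 to 0.355) and the fibroblast marker Thy1 (7.99 to 9.39 against 5.85 to 6.33) were higher in the 4OHT control. Every primitive endoderm gene overlapped between the 2 controls. The part of these markers in this comparison was not tested. The median log2 difference was 0.15 over the set and 0.00 over all tested genes. Among the 20 genes left out by name, 7 were higher and 0 lower, with a median of 0.12. The largest difference was that of Efcab2, at 2.31, 1.95 and 3.61 CPM in the ethanol control libraries, 4.43, 4.93 and 4.35 in the 4OHT control and 0.806, 0.501 and 0.742 in the labelled KO (log2 difference 0.84 ± 0.21, edgeR FDR 0.01). All 3 libraries of the 4OHT control were above all of the ethanol control. Wdr83os was at 7.94, 8.15 and 9.52 CPM in the ethanol control libraries, 12.8, 12.3 and 11.7 in the 4OHT control and 1.43, 1.40 and 0.742 in the labelled KO (0.54 ± 0.13, FDR 0.0093), again without overlap of the controls. For Hus1, whose values stand above, the difference was 0.51 ± 0.06 (FDR 9.5e-06). Ankrd40, Pigq, Rad54l2, Ap3s2, Vwa8 and Plekhm3 were also called higher, by 0.28 to 0.49, and these 6 with Hus1 and Wdr83os were the 8 called under every alternative fit. Zfp580, Arl6ip4, Ddx1, Tmem242, Gtpbp3, Sar1b, Efcab2 and Trub2 lost the call under at least 1 alternative. Without ethanol control library 2 the count was 9, beside 6.14% of all tested genes higher, and without library 1 it was 10, beside 7.40%.

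The 3 largest negative differences did not pass the test. B4galt7, whose values stand above, differed by -0.25 ± 0.12 (FDR 0.17). Wdr31 was at 24.4, 25.1 and 20.9 CPM in the ethanol control libraries, 20.8, 20.3 and 19.2 in the 4OHT control and 3.72, 3.86 and 3.39 in the labelled KO (-0.22 ± 0.09, FDR 0.11). Stx16 was at 42.6, 42.9 and 43.9 CPM in the ethanol control libraries, 37.1, 37.2 and 37.5 in the 4OHT control and 5.37, 4.96 and 6.58 in the labelled KO (-0.20 ± 0.07, FDR 0.081). With the replicate number as a block, FDR was 0.023 for Wdr31 and 0.0091 for Stx16, and 23 genes were called higher and 2 lower, beside 16.97% and 15.8% of all tested genes in that fit. Line and drug cannot be told apart in this contrast.

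**Figure D4:**
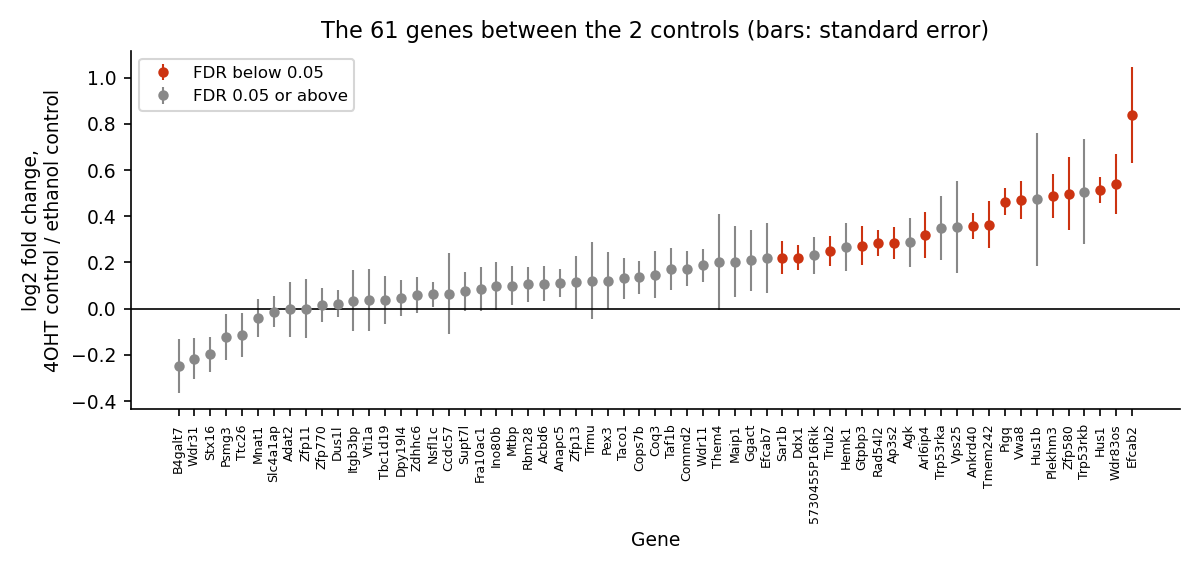
Log2 fold change of each of the 61 genes between the 4OHT control and the ethanol control, with standard errors, ordered by size; red points have an FDR below 0.05. The 16 called genes are all positive, from 0.22 in Sar1b to 0.84 in Efcab2.

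Other subunits of the same complexes mostly stayed near 0. For 32 complexes or pathways that hold a gene of the set, 200 other subunits, paralogs or partners were tested. By definition none of them met the rule, so a smaller fall is partly fixed by the choice. Against the ethanol control, 42 of the 200 fell (21.0%) and 16 rose (8%), beside 14.2% and 13.0% of all tested genes, with a median log2 difference of -0.06 beside 0.01. In no complex did every tested partner fall, and in 8 no partner fell. Of 8 partners in the 9-1-1 clamp and its loader, 2 fell and 0 rose, beside -3.66 ± 0.07 (SE) for Hus1. Of 15 other subunits of the anaphase-promoting complex, 3 fell and 1 rose; of 8 in the COP9 signalosome, 2 fell and 0 rose. Of 13 INO80 subunits, 1 fell and 2 rose, and of 18 SAGA subunits, 3 fell and 0 rose. The 4 other proteasome assembly chaperones had a median of -0.25, beside -3.73 ± 0.14 (SE) for Psmg3, and 2 of them fell.

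**Figure D5:**
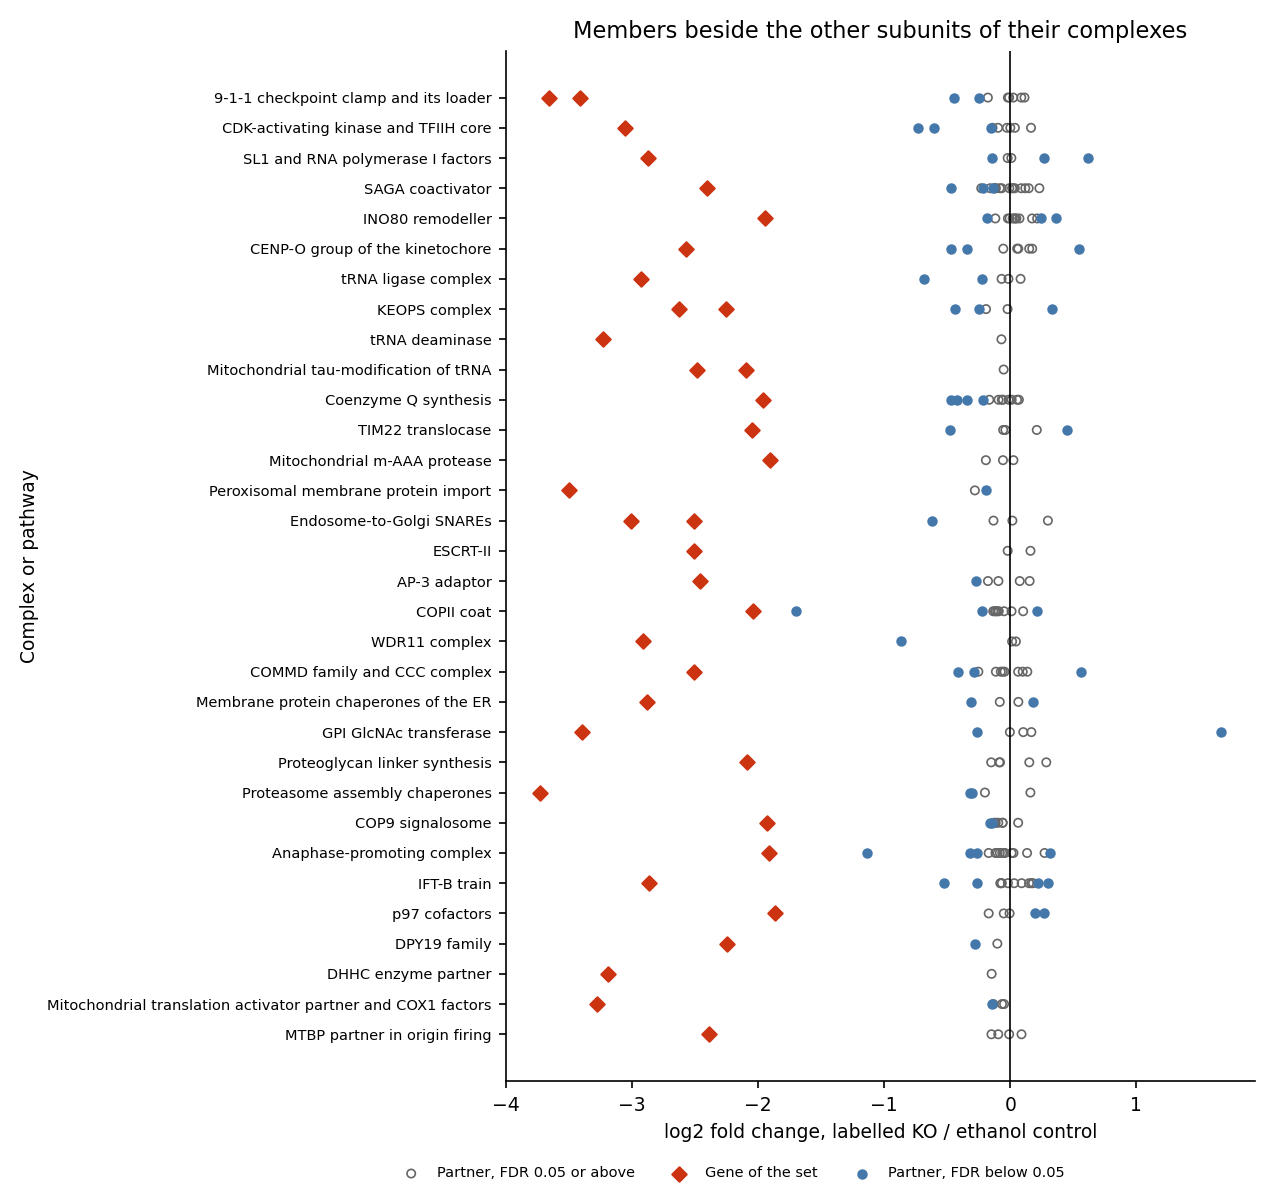
Log2 fold change against the ethanol control for the genes of the set (red diamonds) and for the partners tested in each of 32 complexes or pathways (circles, filled where the FDR is below 0.05). The diamonds lie between -3.73 and -1.87, and most partners lie near 0; Sec13 at -1.70 and Cdc16 at -1.14 are the lowest partners and Pigc at 1.67 the highest.

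Wider lists that hold at least 1 gene of the set were read in the same way. Of 58 other tRNA modification genes, 12 fell and 6 rose (median -0.07). Of 49 other factors of mitochondrial gene expression, 14 fell and 3 rose (median -0.08). Of 24 GPI anchor genes, 6 fell and 3 rose, and of 24 peroxisome genes, 4 fell and 3 rose. Of 55 proteasome and ubiquitin ligase genes, 10 fell and 3 rose, and of 70 SNAREs and tethers, 8 fell and 8 rose. Lists and partners together gave 458 tested genes, of which 89 fell (19.4%) and 40 rose (8.73%). With scaling by library totals only, 54 fell and 78 rose, beside 9.41% and 18.7% of all tested genes, so the balance of directions depends on the scaling. With the replicate number as a block, 140 fell (30.6%) and 69 rose (15.1%), beside 22.3% and 20.4% of all tested genes in that fit. Without labelled KO library 1, 24 rose (5.24%), beside 8.30% of all tested genes. Against the 4OHT control 108 fell (23.6%) and 78 rose (17.0%), beside 19.8% and 19.1% of all tested genes.

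Among the 458, 20 were called and changed at least 1.5-fold, 15 of them lower, and the 12 with the smallest p are named here. Sec22b, a SNARE between ER and Golgi, fell by the largest amount and its values stand above (log2 difference -1.78 ± 0.11, FDR 5.4e-09). Sec13, a COPII coat protein shared with the nuclear pore, was at 131.1, 121.3 and 125.97 CPM in the ethanol control libraries, 85.1, 87.2 and 85.3 in the 4OHT control and 40.1, 41.9 and 40.4 in the labelled KO (-1.70 ± 0.05, FDR 1.1e-12), with the 4OHT control also below the ethanol control. Tyw5, a wybutosine enzyme of tRNA, was at 11.2, 10.9 and 9.28 CPM in the ethanol control libraries, 11.1, 11.7 and 11.5 in the 4OHT control and 4.21, 3.25 and 2.86 in the labelled KO (-1.67 ± 0.14, FDR 2.3e-07). Vps51, a tether subunit, was at 15.3, 13.1 and 14.8 CPM in the ethanol control libraries, 18.98, 14.7 and 16.8 in the 4OHT control and 6.23, 4.41 and 4.98 in the labelled KO (-1.53 ± 0.13, FDR 3.5e-07). In all 4 genes the labelled KO libraries lay below every control library. Cdc16, a subunit of the anaphase-promoting complex like Anapc5, was at 47.1, 45.6 and 48.7 CPM in the ethanol control libraries, 74.6, 68.7 and 74.01 in the 4OHT control and 21.7, 22.1 and 23.5 in the labelled KO (-1.14 ± 0.07, FDR 2.3e-09), and its 4OHT control was the highest group.

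The other 6 falls among the 12 were smaller than those of Sec22b, Sec13, Tyw5 and Vps51. Tefm, the elongation factor of mitochondrial transcription, fell by 1.26 on the log2 scale (FDR 1.7e-09). The proteasome regulators Psmf1 and Psmc2 fell by 1.23 and 1.099 (FDR 2.3e-09 and 2.6e-10). Cdk5rap1, which modifies mitochondrial tRNA, fell by 1.18 (FDR 8.0e-08), and Ssbp1, the mitochondrial single-stranded DNA-binding protein, by 0.95 (FDR 6.3e-08). Fam98b, a partner of Ddx1 in the tRNA ligase complex, fell by 0.69 (FDR 4.8e-07). Taf1d, a partner of Taf1b in SL1, rose by 0.62 ± 0.05 (FDR 2.9e-07). These 12 genes were called in the same direction under every alternative fit. Pigc, chosen after its values were seen as the largest rise, is a subunit of the same enzyme as Pigq and was at 3.18, 3.57 and 2.90 CPM in the ethanol control libraries, 3.08, 2.06 and 2.34 in the 4OHT control and 11.8, 10.2 and 10.4 in the labelled KO (1.67 ± 0.15, FDR 5.3e-07).

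Neighbours that start back to back with a gene of the set were read last. In the GENCODE M21 annotation (build GRCm38), 7 of the 61 genes had an opposite-strand gene start within 1000 bases upstream or up to 300 bases past their own. In 2 pairs both genes belonged to the set, Adat2 with Pex3 and Zdhhc6 with Vti1a. Outside the set, 2 neighbours were tested by edgeR and 0 passed in either comparison, 0 also at an unadjusted p below 0.05 and 0 by DESeq2. Sec24a, a COPII coat gene beside Sar1b, was at 98.4, 90.6 and 83.8 CPM in the ethanol control libraries, 88.6, 83.2 and 81.2 in the 4OHT control and 93.7, 83.1 and 86.8 in the labelled KO (log2 difference -0.12 ± 0.06 from the ethanol control, FDR 0.16), and the groups overlapped. Pde6d, beside Cops7b, was at 16.97, 15.2 and 18.5 CPM in the ethanol control libraries, 17.02, 15.4 and 18.7 in the 4OHT control and 16.2, 13.6 and 16.8 in the labelled KO (-0.19 ± 0.10, FDR 0.20), also with overlap. With the replicate number as a block both passed against the ethanol control, with FDR 0.022 and 0.041. Taco1os, beside Taco1, was too low to be tested.

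Transcript starts, a definition added after the first result was seen, gave 13 genes with a neighbour within 1000 bases in either order. Slc4a1ap with Supt7l was a further pair inside the set, which made 3. Of 6 tested neighbours outside it, 3 fell against both controls, beside 14.2% of all tested genes against the ethanol control and 19.8% against the 4OHT control. Mrpl13, beside Mtbp, met the rule itself and was left out by name. Tyw5, beside Maip1, is given above. Wdr83, a scaffold protein beside Wdr83os, was at 14.9, 12.996 and 13.7 CPM in the ethanol control libraries, 17.6, 17.8 and 15.6 in the 4OHT control and 8.42, 6.51 and 7.95 in the labelled KO (-0.93 ± 0.11, FDR 1.5e-05), with all labelled KO libraries below the controls. Coq4 beside Trub2, Pde6d and 4930594M22Rik beside Ggact did not pass (FDR 0.74, 0.20 and 0.91 against the ethanol control). Exons of 11 of the 61 genes overlap a gene on the other strand, among them the pairs with Mrpl13, Tyw5 and Wdr83. The libraries were directional, but no label or header read here tells whether HTSeq was run by strand, so reads of such overlapping genes cannot be told apart.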

How the data were processed

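RNA sequencing of rRNA-depleted, directional libraries (9 libraries, 3 per group) was used. The authors deposited raw counts per gene, 1 file per library, with HTSeq's 5 closing rows. The submitters' processing notes list cutadapt, Bowtie 1.1.2, STAR, HTSeq, edgeR, MACS2, DiffBind and the build mm9. Rows that name no gene, 26.4% to 33.8% of reads being without a feature, stayed out of totals and tests. CPM were computed from gene totals of each library. Tests used edgeR 4.0.16 (robust quasi-likelihood fit, TMM, filterByExpr, all 9 libraries, 6 residual degrees of freedom) with Benjamini-Hochberg FDR below 0.05 over 16224 genes. Symbols came from GENCODE M21. The fit was tested on simulated counts.

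The genes, lists and partners were chosen with earlier results of these data known. Values per library were given for the 12 lowest ratios, the 3 most abundant genes, the 3 largest control differences each way, 3 genes on each side of the limit, and up to 12 called partners changed at least 1.5-fold. Replicate numbers pair the libraries: all 9 same-number pairs of deviations correlated, from 0.11 to 0.31. Only the fit with a replicate block used this pairing. Alternatives were scaling, filters, DESeq2 1.42.0, a replicate block, fits of 2 groups and each library left out.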

Additional observations from a re-analysis of the deposited data

Results flagged for a closer look

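Reads that HTSeq assigned to no feature, which entered no comparison, took 32.7% to 33.8% of the reads in the 3 labelled KO libraries and 26.4% to 28.7% in the 6 control libraries. The labelled KO libraries were above all controls. Where these reads lie is not recorded in the count files, and their part in the falls of the 61 genes was not tested.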

How the results depend on the processing

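The selection gave 45 genes with a ratio limit of 0.25, 71 with 0.35, 64 with TMM-scaled CPM, 63 and 55 with control minimums of 0.5 and 5 CPM, and 59 to 65 with 1 library left out. Members called higher in the 4OHT control numbered 9 to 18 with 1 library left out, and those called lower 0 to 1. The replicate block called 2 lower and the fit of the 2 groups compared called 1. The block called 2 upstream neighbours in place of 0; Sec24a and Pde6d were gained. Falls among lists and partners numbered 54 with library totals, 140 with the block and 60 to 105 with 1 library left out. Rises numbered 78, 69 and 24 to 46. With only the 200 bases before the start, the ETS core was in 9 windows (16.7%) in place of 17 (31.5%). In the other expressed genes its share was 14.6% in place of 20.2%. CGGAAC was in 31 windows of the set either way. The block also raised the calls over all tested genes, from 2307 to 3625 fallen and 2110 to 3311 risen against the ethanol control, and from 1567 to 2754 higher and 1420 to 2569 lower between the controls. It moved none of the other counts recomputed with it for members, neighbours and promoter words by over 1.5 times. The cause of the other shifts was not tested. Hus1b, Vps25, Them4, Trp53rkb, Zfp11, Zfp580 and Efcab2 rest on few counts in the labelled KO libraries.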
